A study of Homo sapiens with 95 samples.

Results

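The hemidesmosome and laminin-332 genes are 8 genes given by name, LAMA3, LAMB3, COL17A1, ITGA6, ITGB4, DST, PLEC and CD151, out of 27978 genes listed in every file. All 8 were found and all 8 passed the filter of a mean count above 1. Expression was measured by sparse full length (SFL) sequencing, a ribosomal RNA depletion method in which barcoded libraries are pooled, in 95 samples of AALE cells, an immortalized human bronchial epithelial cell line. The samples cover 8 lines and 4 treatments, with 3 samples in 31 combinations and 2 samples for CSC in the FGFR1 line. Lines labelled FAT1 and CDKN2A carried CRISPR knockouts, and their control, GFP, received the Cas9-EGFP plasmid without a guide. Lines labelled NRF2 (gene NFE2L2), FGFR1, NRG1 and PIK3CA overexpressed the named gene, and their control, HCRED, carried a vector with the HcRed reporter alone. Each line received cigarette smoke condensate (CSC, 24 μg/ml), benzo[a]pyrene (BaP, 173 μM), nicotine-derived nitrosamine ketone (NNK, 490 μM) or the vehicle DMSO. The labels do not say whether a line is a clone or a pool or what promoter drives each transgene, and replicates share a line, so the p-values cover the spread between samples of a line and not the making of the line.

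Hemidesmosomes fasten basal epithelial cells to the basement membrane. Outside the cell, laminin-332, whose α3 and β3 chains are encoded by LAMA3 and LAMB3, is the ligand of integrin α6β4 (ITGA6 and ITGB4). Collagen XVII (COL17A1) is a transmembrane collagen of the same structure, and the tetraspanin CD151 associates with laminin-binding integrins. On the inner face, plectin (PLEC) and the epithelial form of dystonin, known as BP230 (DST), link the receptors to keratin filaments. Basal cells of the airway are anchored in this way, and inherited loss of several of these proteins causes blistering skin disease.

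The libraries held 287446 to 2116383 counted reads, so that a count of 3 corresponded to 1.42 to 10.4 CPM, counts scaled to a fixed library size. Each perturbed gene differed from its control in the labelled direction with no overlap between samples in all 6 lines, and no pair of files held identical counts. All 7 markers of basal airway cells and all 4 of epithelium had a mean count of at least 10. None of the 9 markers of ciliated, secretory or alveolar cells and none of the 3 of endothelium did, the 7 fibroblast markers summed to 8.18 to 66.9 CPM, and the 4 immune markers to 0 to 38.8 CPM. The basal markers moved with the lines, with a median sum of 4782 CPM in FAT1 and 9327 CPM in NRF2, and their part in the results was not tested. In bulk samples fewer cells of a type and less RNA per cell cannot be told apart.

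RefSeq promoters (GRCh38.p14, 250 bases before the start site) were at hand for 5 of the 8 genes, LAMA3, LAMB3, COL17A1, ITGA6 and DST, in 10 entries. They were searched on both strands for the AP-1 motif TGANTCA, which is its own reverse complement apart from the free base, because AP-1 is known to act on laminin genes of keratinocytes. The motif was found in 6.57% of 35116 promoters of this length. LAMA3 held it at -125 and -69 from the start site, and the third start site of LAMB3 held it at -67. It was in none of the other 8 entries, which include both other start sites of LAMB3. Of 4 motifs searched, the core of the antioxidant element, TGANNNNGC, was found in the same pair of entries and in 35.2% of all promoters, and in LAMA3 it overlaps the first AP-1 match. The core of the dioxin element, GCGTG, was in 1 of the 10 entries (32.2% of all promoters), and the GC box, GGGCGG, in 6 (42.6%). The pair of entries that hold the AP-1 motif are printed, with that motif in capitals. LAMA3 lies at chr18:23872770-23873019 on the plus strand, and LAMB3 at chr1:209651375-209651624 on the minus strand.
LAMA3: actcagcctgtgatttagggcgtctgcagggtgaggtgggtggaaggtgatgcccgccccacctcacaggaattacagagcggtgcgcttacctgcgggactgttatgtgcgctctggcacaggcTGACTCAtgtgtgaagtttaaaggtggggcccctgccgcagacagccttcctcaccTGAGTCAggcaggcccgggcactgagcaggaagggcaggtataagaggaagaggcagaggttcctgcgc
LAMB3: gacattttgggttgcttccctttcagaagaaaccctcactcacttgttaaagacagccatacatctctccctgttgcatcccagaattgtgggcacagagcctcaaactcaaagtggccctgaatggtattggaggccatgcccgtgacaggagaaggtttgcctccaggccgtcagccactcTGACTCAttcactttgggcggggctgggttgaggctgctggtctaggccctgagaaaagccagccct
The matches are a description of letters, not sites shown to be bound, and were not tested against any response.

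All 8 genes were detected in all 95 samples, the lowest count being 25 reads for CD151. In CPM scaled by the trimmed mean of M values (TMM), PLEC was the most abundant, with a lowest, median and highest value of 1521, 4102 and 6903 CPM. DST followed at 987, 1477 and 2726 CPM, and ITGB4 at 514, 907 and 1401 CPM. LAMA3 had a median of 630 CPM, ITGA6 of 577 CPM, LAMB3 of 456 CPM and COL17A1 of 421 CPM. CD151 was the lowest, at 36.7, 90.7 and 145 CPM. Per kilobase of merged exons, which joins the exons of all isoforms, the order of median levels was PLEC (241 CPM per kb), ITGB4 (134), LAMB3 (98.1), ITGA6 (86.4), COL17A1 (60.3), LAMA3 (43.5), DST (30.7) and CD151 (23.3). Merged exons of DST span 48142 bases, most of them outside the epithelial isoform, so its level per kb is a lower figure than that isoform would have. The ranges of the neighbours LAMB3 (49.3 to 147 CPM per kb) and ITGA6 (31.0 to 148 CPM per kb) overlapped, as did those of DST and CD151.

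On GRCh37 (hg19), LAMA3 lies at chr18:21269417-21536186, LAMB3 at chr1:209788215-209825770, COL17A1 at chr10:105791044-105845638, ITGA6 at chr2:173292082-173371187, ITGB4 at chr17:73717408-73753899, DST at chr6:56322785-56819628, PLEC at chr8:144989321-145050902 and CD151 at chr11:832887-839831. The genes are thus unlinked, and each value sums reads over all exons of its gene. The GC content of those exons is 39.7% in DST, 42.5% in ITGA6, 47.8% in LAMA3, 53.5% in COL17A1, 58.7% in LAMB3, 62.7% in CD151, 64.0% in ITGB4 and 67.2% in PLEC.

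**Figure D1:**
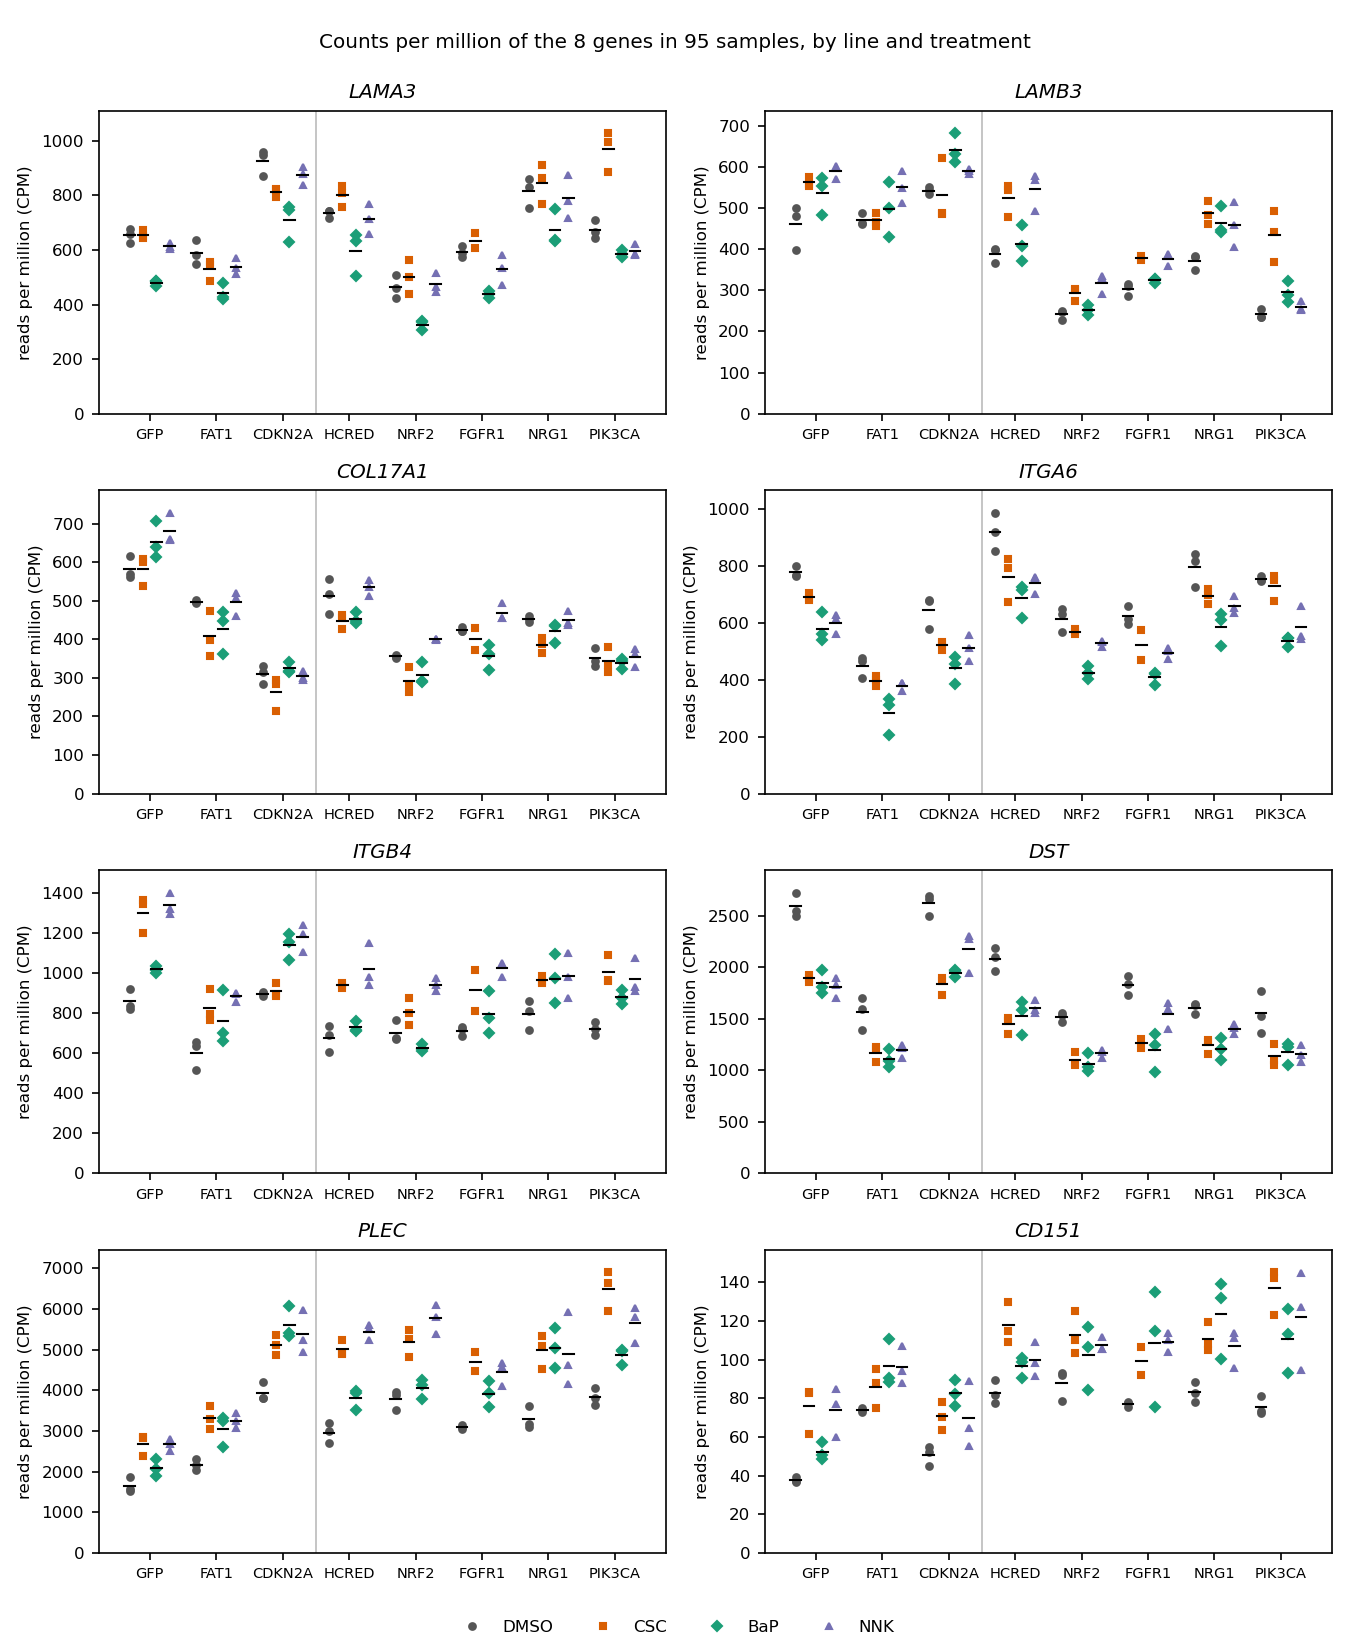
TMM-scaled CPM (y axis, linear from 0) of the 8 genes in each of the 95 samples, by line (x axis) and treatment (symbol), with a bar at the mean of each combination. The grey line parts the CRISPR lines with their GFP control from the overexpression lines with their HCRED control. PLEC and CD151 were lowest in GFP cells with DMSO, and LAMA3 was highest in PIK3CA cells with CSC.

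The means of log2 CPM of the 32 combinations spanned 2.23-fold for ITGB4 to 3.94-fold for PLEC. PLEC ran from 1648 CPM in GFP cells with DMSO to 6493 CPM in PIK3CA cells with CSC. ITGA6 spanned 3.28-fold, from FAT1 cells with BaP to HCRED cells with DMSO, and LAMA3 2.95-fold, from NRF2 cells with BaP to PIK3CA cells with CSC. The pooled SD within combinations was 0.10 to 0.12 on the log2 scale for 7 of the genes and 0.18 for CD151, against an SD over all samples of 0.29 to 0.49.

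The lines were compared with their own control over the 4 treatments, with treatment as a term in limma-voom. FAT1 and CDKN2A share the GFP samples, and the overexpression lines share the HCRED samples. Of the 8 genes, 7 differed in FAT1 (2 higher, 5 lower), where 48.8% of all tested genes were called. In CDKN2A 5 differed (2 higher, 3 lower) against 57.7% of genes, in NRF2 7 (1 higher, 6 lower) against 21.7%, in FGFR1 6 (all lower) against 13.4%, in NRG1 5 (2 higher, 3 lower) against 10.8%, and in PIK3CA 6 (2 higher, 4 lower) against 27.8%. By direction, the share called higher and lower was 24.9% and 23.9% in FAT1, 29.4% and 28.3% in CDKN2A, 10.5% and 11.2% in NRF2, 7.25% and 6.19% in FGFR1, 5.83% and 4.92% in NRG1, and 14% and 13.8% in PIK3CA. Highly counted genes are called more often. Among genes averaging 100 reads or more, the called share was 69.3% in FAT1, 77.8% in CDKN2A, 42.7% in NRF2, 27% in FGFR1, 21.8% in NRG1 and 47.7% in PIK3CA. The member counts in FAT1 and CDKN2A were therefore near the background of such genes.

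Laminin-332 chains were lower in NRF2 cells. LAMA3 ranged from 307 to 564 CPM (median 454) in the NRF2 line and from 503 to 834 CPM (median 730) in HCRED cells. LAMB3 ranged from 229 to 335 CPM (median 269) in NRF2 cells and from 366 to 576 CPM (median 468) in HCRED cells, with no overlap, whereas the samples of LAMA3 overlapped. The log2 fold change was -0.71 (SE 0.042, adjusted p = 4.58e-24) for LAMA3 and -0.74 (SE 0.046, adjusted p = 7.17e-23) for LAMB3.

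In the other lines the chains moved together or apart. FGFR1 cells were lower in both, with -0.37 (SE 0.038) for LAMA3 and -0.41 (SE 0.045) for LAMB3, and medians of 575 and 328 CPM. FAT1 cells were lower in LAMA3, with -0.19 (SE 0.036, adjusted p = 6.63e-06), while LAMB3 differed by -0.08 (adjusted p = 0.0831, and called at -0.21 with the GC correction described further on, or at -0.15 without the DMSO samples). PIK3CA cells were lower in LAMB3, with a median of 273 CPM and a change of -0.59 (SE 0.056, adjusted p = 2.46e-14), while LAMA3 differed by -0.03 (95% interval -0.11 to 0.06, adjusted p = 0.692). Without the CSC samples LAMA3 of PIK3CA cells was lower, at -0.17 (adjusted p = 0.00167). NRG1 cells were higher in LAMA3 by 0.15 (adjusted p = 0.00654), a call lost without replicate 1 (0.08) or replicate 2 (0.14). CDKN2A cells were higher in LAMA3, at 630 to 959 CPM (median 830) against 468 to 677 CPM (median 626) in GFP cells, a change of 0.46 (SE 0.033, adjusted p = 1.87e-19). LAMB3 of the CDKN2A line differed by 0.10 (adjusted p = 0.0509, and called at 0.12 without replicate 3).

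Integrin α6, the ligand-binding partner that also pairs with β1, was lower than its control in all 6 perturbed lines. In FAT1 cells ITGA6 ranged from 207 to 475 CPM (median 387), below every GFP sample, which ranged from 540 to 799 CPM (median 658). The change was -0.79 (SE 0.042, adjusted p = 1.21e-27), or 0.579 times the control level. In FGFR1 cells it was -0.60 (SE 0.040), in NRF2 cells -0.56 (SE 0.039), in CDKN2A cells -0.33 (SE 0.038), in PIK3CA cells -0.28 (SE 0.038) and in NRG1 cells -0.18 (SE 0.039, adjusted p = 8.75e-04). Integrin β4, which pairs with α6 alone and carries the long tail that binds plectin, was lower in 3 of these lines and not in the other 3. ITGB4 was 514 to 920 CPM (median 780) in FAT1 cells and 819 to 1401 CPM (median 1116) in GFP cells, a change of -0.56 (SE 0.036, adjusted p = 1.70e-23) with overlapping samples. ITGB4 was also called lower in CDKN2A (-0.14) and NRF2 cells (-0.12) and higher in NRG1 (0.18) and PIK3CA cells (0.09), and differed by 0.01 in FGFR1 cells. Small calls of this kind rested on part of the samples: the ITGB4 call was lost without the CSC samples in CDKN2A (-0.03), without replicate 3 in NRF2 (-0.09), without replicate 2 in NRG1 (0.11) and without replicate 1 in PIK3CA (0.07).

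Collagen XVII was lower than the control in all 6 perturbed lines. COL17A1 of CDKN2A cells ranged from 213 to 342 CPM (median 307), below every GFP sample (539 to 728 CPM, median 615), a change of -1.06 (SE 0.043, adjusted p = 1.24e-32) or 0.481 times the control. In FAT1 cells it ranged from 357 to 520 CPM (median 472), again below every GFP sample, a change of -0.42 (SE 0.042). In NRF2 cells (264 to 400 CPM) and PIK3CA cells (315 to 380 CPM) all samples lay below the HCRED range of 426 to 556 CPM, with changes of -0.52 (SE 0.042) and -0.50 (SE 0.041). The changes in FGFR1 cells, -0.25 (SE 0.041), and NRG1 cells, -0.17 (SE 0.041), were smaller with overlapping samples, and that of NRG1 was not called without replicate 1 (-0.16, adjusted p = 0.0659).

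The cytoplasmic linkers moved in opposite directions in several lines. DST was lower in FAT1 cells, at 1027 to 1702 CPM (median 1214) against 1698 to 2726 CPM (median 1896) in GFP cells, a change of -0.69 (SE 0.027, adjusted p = 3.25e-36). It was also lower in NRF2 (-0.47, SE 0.028), PIK3CA (-0.43, SE 0.031), NRG1 (-0.29, SE 0.031) and FGFR1 cells (-0.21, SE 0.031), and differed by 0.05 in CDKN2A cells (95% interval -0.002 to 0.10), called at 0.11 without replicate 1. PLEC was higher in CDKN2A cells, at 3804 to 6076 CPM (median 5176), than in every GFP sample (1521 to 2846 CPM, median 2349), a change of 1.13 (SE 0.037, adjusted p = 5.05e-38) or 2.19 times the control. PLEC was also higher in FAT1 (0.40, SE 0.032), PIK3CA (0.29, SE 0.029) and NRF2 cells (0.14, SE 0.025). By treatment, in a limma-voom fit of all 95 samples, PLEC of NRF2 cells was called with DMSO alone (0.38). With CSC, BaP and NNK it differed by 0.04, 0.10 and 0.08 (adjusted p = 0.814, 0.349 and 0.615). PLEC of PIK3CA cells was not called with NNK (0.02, adjusted p = 0.907). Its call in FGFR1 cells (-0.08, adjusted p = 0.0478) was lost when any replicate number was left out. PLEC of NRG1 cells differed by 0.11 (adjusted p = 0.0931), and was called at 0.17 without replicate 3.

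CD151 had the fewest reads of the 8 genes and the widest errors. In FAT1 cells it ranged from 72.8 to 111 CPM (median 88.1) against 36.7 to 84.7 CPM (median 58.8) in GFP cells, a change of 0.56 (SE 0.090, adjusted p = 1.44e-07). The 5 other perturbed lines differed from their control by -0.05 to 0.16, with adjusted p of 0.148 or more, although CDKN2A was called without replicate 3 (0.29).

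The control lines differed from each other in all 8 genes, where 45% of tested genes were called, 22.2% higher and 22.8% lower in GFP cells. Among genes averaging 100 reads or more, 66.6% were called. PLEC of GFP cells had a median of 2349 CPM against 4435 CPM in HCRED cells, a change of -0.90 (SE 0.025, adjusted p = 4.31e-48), and CD151 changed by -0.74 (SE 0.082). ITGB4 was higher in GFP cells by 0.45 (SE 0.029), COL17A1 by 0.37 (SE 0.037), DST by 0.30 (SE 0.023) and LAMB3 by 0.21 (SE 0.041), whereas LAMA3 (-0.25) and ITGA6 (-0.23) were lower. The median PLEC level of FAT1 cells, 3148 CPM, thus lay above that of its GFP control and below that of HCRED cells. So did the CD151 median of FAT1 cells, at 88.1 CPM against 58.8 CPM in GFP and 98.4 CPM in HCRED cells. COL17A1 of FAT1 cells had a median of 472 CPM, below the 615 CPM of GFP cells and near the 469 CPM of HCRED cells.

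**Figure D2:**
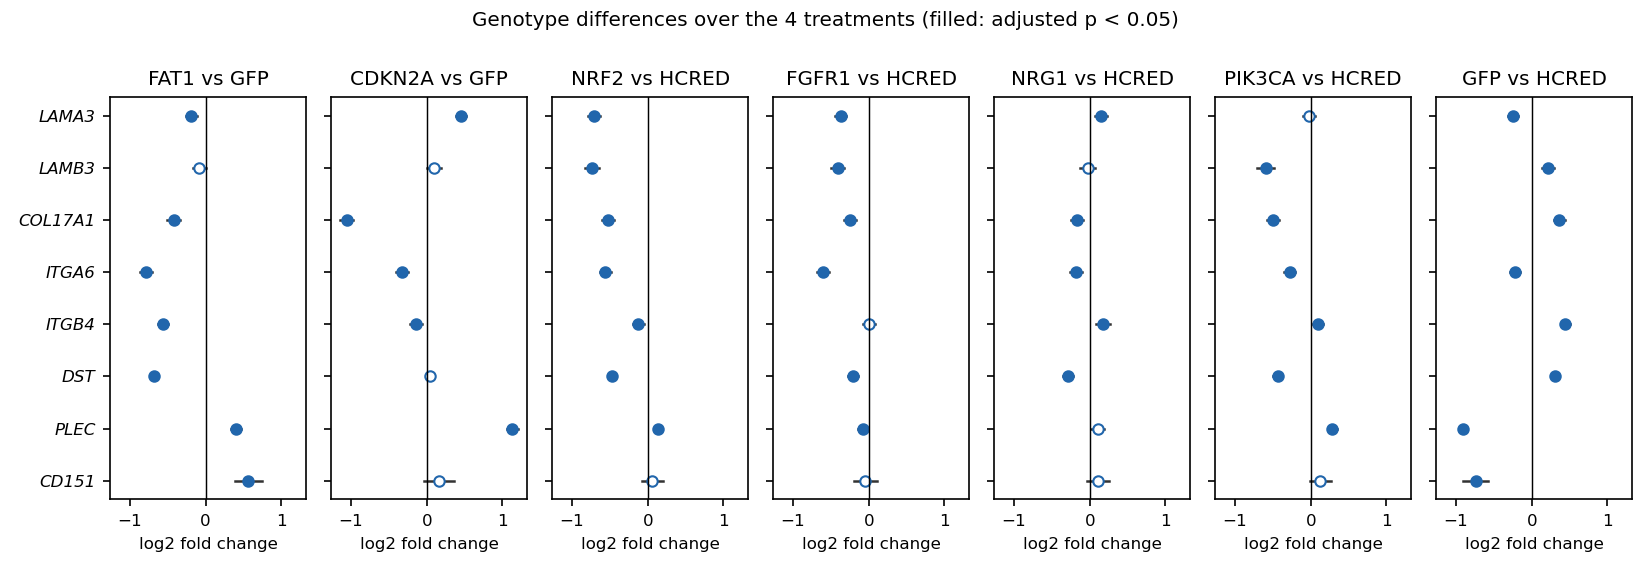
Log2 fold change of each gene between a line and its control over the 4 treatments (x axis), with the 95% interval as a line and filled points for an adjusted p below 0.05. COL17A1 and ITGA6 lie left of 0 in all 6 perturbed lines, from -1.06 and -0.79 at the extremes, while PLEC reaches 1.13 in CDKN2A. The last panel compares the control lines.

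With DMSO samples alone, 3 against 3, the calls were 7 of 8 in FAT1 (26.3% of all genes called), 5 in CDKN2A (37.2%), 6 in NRF2 (7.15%), 5 in FGFR1 (1.86%), 4 in NRG1 (2.03%), 5 in PIK3CA (8.59%) and 8 for GFP against HCRED (17.7%). Among genes averaging 100 reads or more, these shares were 46.9%, 62.9%, 20%, 4.79%, 5.87%, 20% and 35.9% in the same order. In NRF2 cells with DMSO, LAMA3 read 460, 424 and 509 CPM against 716, 744 and 745 CPM in HCRED cells, and LAMB3 read 250, 246 and 229 CPM against 366, 399 and 400 CPM. ITGA6 read 475, 465 and 406 CPM in FAT1 cells against 799, 768 and 766 CPM in GFP cells. COL17A1 read 285, 315 and 331.9 CPM in CDKN2A cells against 568, 617 and 562 CPM in GFP cells. None of these sets overlapped, but they were picked from many. How many of all genes did not overlap, 3 against 3, is not given here. The count in FGFR1 dropped to 3 without FGFR1 replicate 3, that in NRG1 to 2 without NRG1 replicate 2 or HCRED replicate 3, and that of GFP against HCRED to 5 without GFP replicate 1, GFP replicate 2 or HCRED replicate 1.

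The chemicals were then compared with DMSO over the 8 lines, with line as a term, all 3 against the same DMSO samples. All 8 genes were called under each chemical, where 55.6% of tested genes were called for CSC, 51.4% for BaP and 51.8% for NNK, and 80.1%, 78.1% and 78.6% of genes averaging 100 reads or more. By direction, 27.2% of genes were called higher and 28.4% lower for CSC, 26.4% and 25.1% for BaP, and 26% and 25.8% for NNK. DST and ITGA6 were lower under all 3 chemicals, and PLEC, ITGB4, CD151 and LAMB3 were higher under all 3. The changes followed the GC content of the genes, as did those of all genes. Over all tested genes with a known GC content, the rank correlation of the log2 fold change with GC content was 0.70 for CSC, 0.72 for BaP and 0.76 for NNK, against -0.20 to 0.21 in the genotype comparisons over 4 treatments. A correction was therefore fitted, in which the smooth trend with GC content and exon length was removed from each sample, and each change is given with and without it.

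PLEC, the most GC-rich of the 8, ranged from 1521 to 4193 CPM (median 3161) with DMSO, and its median was 4923 CPM with CSC, 4058 CPM with BaP and 5046 CPM with NNK. Its change was 0.60 (SE 0.024) for CSC, 0.39 (SE 0.027) for BaP and 0.58 (SE 0.026) for NNK, and it was called higher in 24 of 24 comparisons within lines. With the correction PLEC changed by -0.01 (adjusted p = 0.914), -0.07 (adjusted p = 0.0401) and -0.03 (adjusted p = 0.501). ITGB4 went from 0.37, 0.20 and 0.48 to -0.09, -0.23 and 0.03, of which the CSC and BaP values were called lower. LAMB3 went from 0.30, 0.18 and 0.29 to -0.01, -0.11 and 0.01, and CD151 from 0.52, 0.42 and 0.45 to 0.12, 0.04 and 0.08. None of these 4 GC-rich genes was called higher over the 8 lines once corrected.

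DST, the most AT-rich gene, had a median of 1752 CPM with DMSO, 1279 CPM with CSC, 1252 CPM with BaP and 1426 CPM with NNK, with overlapping samples. It fell by 0.47 (SE 0.020) with CSC, by 0.44 (SE 0.022) with BaP and by 0.33 (SE 0.022) with NNK on the log2 scale. The corrected changes were -0.28 (SE 0.019, adjusted p = 1.06e-24), -0.18 (SE 0.021, adjusted p = 1.10e-11) and -0.13 (SE 0.019, adjusted p = 5.34e-08). DST was lower in 24 of 24 comparisons within lines in both forms, and called in 24 without and 14 with the correction.

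ITGA6 and LAMA3 were both lower with BaP, with and without the correction. ITGA6 had a median of 703 CPM with DMSO and 497 CPM with BaP, and changed by -0.48 (SE 0.028), or -0.33 (SE 0.026, adjusted p = 1.05e-19) with the correction, which was called in 7 of 8 lines. LAMA3 had a median of 662 CPM with DMSO and 494 CPM with BaP, and changed by -0.33 (SE 0.027), or -0.29 (SE 0.026, adjusted p = 2.07e-16) corrected, which was called in 4 of 8 lines and below 0 in 8 of 8. In PIK3CA cells LAMA3 read 587, 599 and 573 CPM with BaP against 664, 712 and 645 CPM with DMSO. With CSC the corrected change of ITGA6 was -0.04 (adjusted p = 0.245), and with NNK it was -0.13 (adjusted p = 1.18e-05). LAMA3 with NNK was -0.08 uncorrected and -0.11 corrected.

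COL17A1, of intermediate GC content, changed more once corrected. It went from -0.16 (SE 0.031) to -0.34 (SE 0.029, adjusted p = 1.11e-18) with CSC, and from -0.09 (SE 0.031) to -0.24 (SE 0.030, adjusted p = 8.18e-11) with BaP. With NNK it turned from 0.08 to -0.09 (adjusted p = 0.0107). Corrected for CSC, it was below 0 in 8 of 8 lines and called in 7, against 2 lines without the correction. The uncorrected BaP call was lost without replicate 2 or without the HCRED line, and the uncorrected NNK call without replicate 1, replicate 2 or the GFP line.

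**Figure D3:**
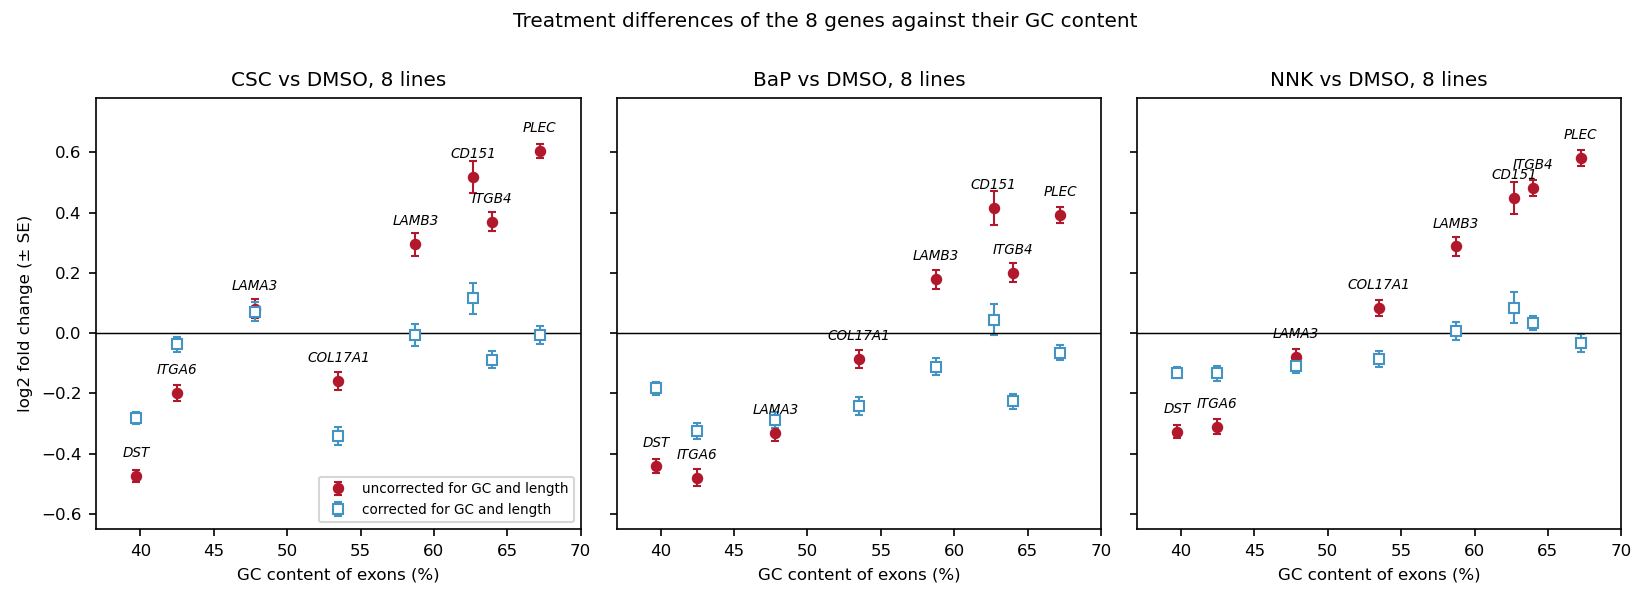
Log2 fold change (± SE) of each gene for CSC, BaP and NNK against DMSO over the 8 lines (y axis) against the GC content of its exons in percent (x axis), uncorrected (filled) and corrected for GC content and length (open). Uncorrected points climb from DST at 39.7% to PLEC at 67.2%, and the corrected points of PLEC lie at -0.07 to -0.01.

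Within single lines, 42 of 64 gene-by-line pairs were called for CSC (9.09 to 25% of all genes per line), 42 for BaP (4.73 to 18.6%) and 40 for NNK (5.41 to 18.2%). The share of all genes called with CSC was 25% in GFP, 12.7% in FAT1, 11.2% in CDKN2A, 23.8% in HCRED, 9.09% in NRF2, 11.7% in FGFR1, 14% in NRG1 and 22.7% in PIK3CA. With BaP it was 11% in GFP, 15.2% in FAT1, 18.6% in CDKN2A, 4.73% in HCRED, 8.53% in NRF2, 5.43% in FGFR1, 7.81% in NRG1 and 10.9% in PIK3CA. With NNK it was 18.2% in GFP, 10.2% in FAT1, 5.41% in CDKN2A, 16.4% in HCRED, 6.9% in NRF2, 7.84% in FGFR1, 6.42% in NRG1 and 9.77% in PIK3CA. By direction, the shares of all genes called per line were 4.83 to 12.7% higher and 4.27 to 13% lower for CSC, 2.68 to 9.72% and 2.05 to 8.91% for BaP, and 3.03 to 9.86% and 2.38 to 8.33% for NNK. Among genes averaging 100 reads or more, the called share per line was 26.7 to 51% for CSC, 12.9 to 45.2% for BaP and 15.3 to 44.9% for NNK. With the correction 23, 25 and 3 of the pairs were called, against 5984, 2517 and 1156 calls over all genes in the 8 lines. Each of those fits held at most 13423 genes, and the corrected share per line is not given here. Of the 124 uncorrected calls, 29 had the other sign once corrected, 13 of them in PLEC and 12 in ITGB4, and 5 of the 29 were called in that direction. 

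Whether the response differed between lines was tested as an interaction over the 8 lines. For CSC, LAMA3 (adjusted p = 6.70e-07), LAMB3 (adjusted p = 2.35e-06), ITGB4 (adjusted p = 1.06e-04) and PLEC (adjusted p = 1.38e-04) were called, 4 of 8 genes, where 1.39% of all tested genes and 5.43% of those averaging 100 reads or more were called. For BaP and NNK, PLEC was the one gene of the 8 called, with adjusted p = 9.05e-05 (0.368% of genes) and adjusted p = 0.00224 (0.195% of genes). With the correction LAMA3 (adjusted p = 1.87e-04), LAMB3 (adjusted p = 3.19e-04) and ITGB4 (adjusted p = 0.00190) stayed called for CSC. PLEC did not, with adjusted p = 0.502 for CSC, 0.0839 for BaP and 0.9997 for NNK. How many of all genes were called in the corrected CSC test is not given here. The corrected tests of BaP and NNK called 56 and 14 of all genes.

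The laminin chains stood out in PIK3CA cells. LAMA3 read 1028, 997 and 887 CPM with CSC against 664, 712 and 645 CPM with DMSO, and no BaP or NNK sample of that line exceeded 621 CPM. LAMB3 read 493, 442 and 369 CPM with CSC against 234, 255 and 236 CPM with DMSO. In both genes the CSC samples lay above every DMSO sample of the line. How many of all genes did so is not given here. The change was 0.48 (SE 0.053) for LAMA3 and 0.78 (SE 0.082) for LAMB3, and with the correction 0.44 (SE 0.055, adjusted p = 2.54e-09) and 0.46 (SE 0.082, adjusted p = 2.59e-05). CD151 was also called higher with the correction in this line, at 0.39 (SE 0.121, adjusted p = 0.0317), as it was in GFP cells (0.51, adjusted p = 0.0451).

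In the other 7 lines the corrected CSC change of LAMA3 ran from -0.10 in CDKN2A to 0.12 in NRF2, and that of LAMB3 from -0.22 in CDKN2A to 0.14 in NRG1. Without the PIK3CA line, a setting chosen after seeing the data, LAMA3 was no longer called (adjusted p = 0.0570, corrected 0.371), and LAMB3 was called uncorrected (adjusted p = 0.00220) but not corrected (adjusted p = 0.139). The small CSC call of LAMA3 over the 8 lines (0.08, adjusted p = 0.0247) likewise became 0.001 without the PIK3CA line, and was lost without replicate 2 (0.06). ITGB4 remained called in both forms without that line (adjusted p = 1.13e-04 and 0.00293). Its corrected CSC change ran from -0.34 in CDKN2A, with 896, 951 and 883 CPM against 898, 883 and 907 CPM with DMSO, to 0.13 in FAT1, with 763, 796 and 920 CPM against 514, 636 and 654 CPM.

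**Figure D4:**
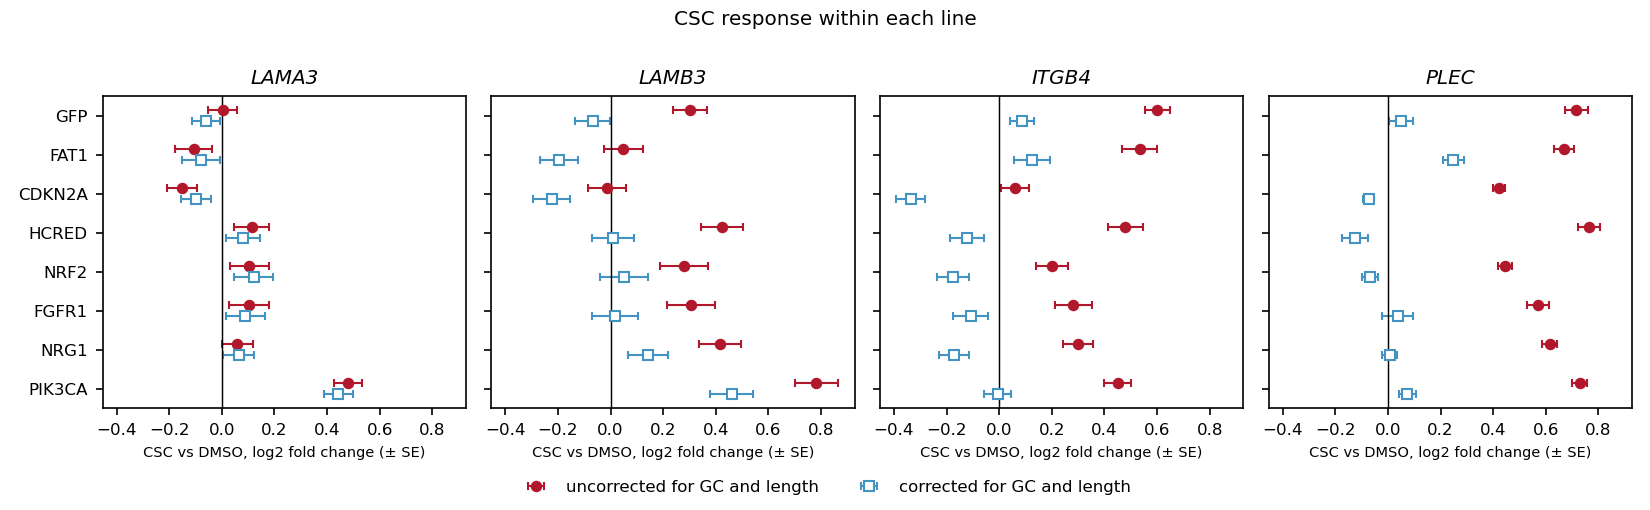
CSC response (log2 fold change against DMSO, ± SE, x axis) of LAMA3, LAMB3, ITGB4 and PLEC within each line (y axis), uncorrected (filled) and corrected for GC content and length (open). For LAMA3 and LAMB3 the PIK3CA line lies farthest right in both forms, at 0.48 and 0.44 and at 0.78 and 0.46, and for PLEC the correction brings the lines to between -0.12 and 0.25.

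Fewer genotype calls were lost with the correction. All 7 calls over 4 treatments in FAT1, 5 in CDKN2A, 7 in NRF2, 5 in NRG1 and 6 in PIK3CA kept sign and call. In FGFR1 5 of 6 did, the exception being PLEC. How many calls of all genes were kept with the correction in these genotype comparisons is not given here. The kept calls therefore cannot be set against a background, and are not shown to be particular to these genes. LAMA3 and LAMB3 of NRF2 cells were -0.71 and -0.79 corrected, COL17A1 of CDKN2A cells was -1.14, ITGA6 of FAT1 cells was -0.69 and PLEC of CDKN2A cells was 1.03. PLEC of PIK3CA cells went from 0.29 to 0.57 and PLEC of NRF2 cells went from 0.14 to 0.20. Of the 44 calls over 4 treatments, control lines included, 9 moved by over 1.5 times. In FAT1 cells DST went from -0.69 to -0.42, CD151 from 0.56 to 0.35 and LAMA3 from -0.19 to -0.12. ITGB4 went from -0.14 to -0.34 in CDKN2A cells and from 0.09 to 0.18 in PIK3CA cells. Between GFP and HCRED cells DST went from 0.30 to 0.15 and LAMB3 from 0.21 to 0.36, and the others were PLEC in PIK3CA and FGFR1 cells. DST of CDKN2A cells (0.08, adjusted p = 0.00457) and LAMB3 of FAT1 cells were called with the correction alone.

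The other genes of the basement membrane zone, a list of 23 laminins, integrins, collagens, matrix proteins, basal keratins, the kindlins FERMT1 and FERMT2 and the basal transcription factor TP63, were set beside the 8. Their counts are to be read against the shares of all genes given above, which were 21.7% in NRF2, 57.7% in CDKN2A, 48.8% in FAT1, 27.8% in PIK3CA, 13.4% in FGFR1 and 10.8% in NRG1, or 42.7%, 77.8%, 69.3%, 47.7%, 27% and 21.8% of genes averaging 100 reads or more. In NRF2 cells 16 of 23 were called (3 higher, 13 lower) with a median change of -0.24, against a median of -0.50 over the 8 genes and 0.005 over all genes. These held ITGA3 (-0.63), the α chain that pairs with β1 as a laminin receptor, LAMA5 (-0.64) and ITGB1 (-0.57), while FRAS1 was higher (0.79). In CDKN2A cells 21 of 23 were called (12 higher, 9 lower), with ITGA3 at 0.65 and LAMA5, a chain of laminin-511, at -1.20. ITGA3 there ranged from 1001 to 1360 CPM, with a median of 1209 CPM against 762 CPM in GFP cells.

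In FAT1 cells 15 of the 22 tested were called (7 higher, 8 lower). KRT14, a basal keratin, had a median of 31.1 CPM against 286 CPM in GFP cells, a change of -3.14 (SE 0.100). KRT5, another basal keratin, had a median of 2837 CPM in FAT1 and 3317 CPM in GFP cells, and TP63 of 203 and 222 CPM. LAMB2, a β chain of other laminins, was higher in FAT1 cells by 1.14 (SE 0.069). In PIK3CA cells 16 of 23 were called (6 higher, 10 lower), with LAMA5 at -1.25 and LAMB1 at 0.82. FGFR1 had 14 calls (5 higher, 9 lower) and NRG1 11 (6 higher, 5 lower), both with lower KRT14 (-1.05 and -1.29). Medians of KRT5 were 3412 CPM in FGFR1, 2867 CPM in NRG1 and 3973 CPM in HCRED cells. Those of TP63 were 202, 159 and 189 CPM in the same order. Of the 8 enzymes that cut laminin-332 or collagen XVII or are related to such enzymes, 7 were tested. In CDKN2A cells all 7 were called (2 higher, 5 lower), against 57.7% of all genes. ADAM17, a sheddase of collagen XVII, was higher in CDKN2A cells (0.52), and BMP1, which processes laminin-332, was lower there (-0.50). ADAM9 and ADAM10, of the same list, had medians of 313 and 231 CPM there, against 339 and 269 CPM in GFP cells. In NRF2 cells 4 of the 7 enzymes were called, all lower, against 21.7% of all genes. With CSC 17 of the 23 genes were called (7 higher, 10 lower), with BaP 20 (6 higher, 14 lower) and with NNK 15 (11 higher, 4 lower), against 55.6%, 51.4% and 51.8% of all genes and 80.1%, 78.1% and 78.6% of those averaging 100 reads or more. With the correction 9 (2 higher, 7 lower), 14 (2 higher, 12 lower) and 12 (10 higher, 2 lower) were called. Fewer genes were called with it in general. Of at most 13423 genes with a known GC content, 4679 were called for CSC and 2623 for NNK. Without the correction 8061 and 7448 of all genes were. The corrected number for BaP is not given here, so its 14 calls cannot be set against a share.

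Across the 32 combinations of line and treatment, the 8 genes did not vary as one group. The Pearson correlation of mean log2 CPM was highest for PLEC with CD151 (0.70), both GC-rich, and for LAMA3 with ITGA6 (0.59) and LAMB3 with ITGB4 (0.58). LAMA3 and LAMB3 had 0.47, and the integrin chains ITGA6 and ITGB4 0.11. The lowest were DST with CD151 (-0.83) and COL17A1 with PLEC (-0.67). Among 8262 genes searched, the gene most like PLEC was BCL9L (0.96), and that most like DST was DLG1 (0.93). MGRN1 was most like CD151 (0.92), TNRC18 most like LAMB3 (0.89), NCKAP1 most like ITGA6 (0.89), ASPH most like LAMA3 (0.88), TAGLN2 most like ITGB4 (0.87) and CHP1 most like COL17A1 (0.87). DLG1 is AT-rich (41.6% GC) and BCL9L GC-rich (63.3%), like the genes they follow. These points share lines, treatments and the GC trend, and the coefficients are given as description.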

How the data were processed

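Counts of reads per gene were measured in 95 SFL libraries. Per the study's methods and the submitters' processing notes, the authors trimmed reads with cutadapt 1.12, checked them with FastQC 0.11.5, aligned them to hg19 with STAR 2.5.2b and deposited raw counts per gene from featureCounts. The strand setting of the counting is not given in the sources used here, so reads of overlapping antisense genes cannot be told apart, and the counts join all isoforms of a gene.

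From these counts, genes averaging more than 1 read over the samples of a fit were tested with limma-voom (limma 3.58.1, edgeR 4.0.16, R 4.3.3; TMM scaling, empirical Bayes, two-sided), with Benjamini-Hochberg adjustment over all tested genes and a threshold of 0.05. Voom and limma follow the study's methods, whose restriction to the most variable genes was not applied. Interactions used the moderated F test. CPM are TMM-scaled. GC content and exon length came from a GRCh37 annotation matched by symbol to 13423 of 14384 genes averaging more than 1 read, or 93.3%, and the correction removed a loess trend (span 0.3) from each sample. Promoters came from RefSeq. As alternatives, DESeq2 1.42.0 and the quasi-likelihood test of edgeR were run, and other scaling and filters, the replicate block, the GC correction and fits with samples left out were tried. The fits were tested on simulated counts.

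The 8 genes and the companion lists were chosen with earlier results of these data known. Companion genes were named with a change only if they averaged 10 reads or more over the 95 samples. They also had to have a called log2 change of at least 0.5 in size in at least 1 fit over 4 treatments or 8 lines. ADAM9, ADAM10, KRT5 and TP63 are given as medians alone, apart from this rule. Not every gene that meets the rule is named, so unnamed genes may also differ. COL4A5, for example, ranged from 167 to 251 CPM in CDKN2A cells and from 82.1 to 148 CPM in GFP cells. The CSC interaction without the PIK3CA line was added after seeing the data. The study calls the replicates biological. Whether they came from separate cultures is not given in the labels, so p-values measure the spread between these samples, which may be technical. Floors and intervals cover counting error or sample spread only. One gene of the companion list is not reported here.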

Additional observations from a re-analysis of the deposited data

Results flagged for a closer look

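A difference between lines in the response to a chemical, by the interaction test of limma-voom over the 8 lines, was found for 6 pairs of gene and chemical. For CSC these were LAMA3 (adjusted p = 6.70e-07), LAMB3 (adjusted p = 2.35e-06), ITGB4 (adjusted p = 1.06e-04) and PLEC (adjusted p = 1.38e-04). For BaP and NNK it was PLEC (adjusted p = 9.05e-05 and adjusted p = 0.00224). With the GC and length correction, LAMA3, LAMB3 and ITGB4 stayed below 0.05 for CSC, and PLEC did not for any of the 3 chemicals. No group had 4 to 10 samples, so single samples were not screened for outliers.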

How the results depend on the processing

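Every difference called with DMSO, over 4 treatments or over 8 lines kept its direction under every alternative run except the GC and length correction, while differences that were not called could change sign. With the correction, 9 of these changed sign: LAMB3 (-0.0056), PLEC (-0.0053) and ITGB4 (-0.088) with CSC, LAMB3 (-0.11), PLEC (-0.065) and ITGB4 (-0.23) with BaP, PLEC (-0.031) and COL17A1 (-0.086) with NNK, and PLEC in NRG1 cells with DMSO (-0.0064). ITGB4 in CDKN2A cells with DMSO, not called before, was called lower with it (-0.21). Within lines, 29 of 124 calls changed sign with it, and their direction was not compared under the other alternatives. The cause of the trend was not tested.

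The correction also lowered the genes called over 8 lines from 8 to 3 with CSC and to 4 with NNK, the calls within lines to 23 with CSC, 25 with BaP and 3 with NNK, and the interactions of BaP and NNK to 0. Calls over all genes fell as well. Over 8 lines they fell from 8061 to 4679 with CSC and from 7448 to 2623 with NNK. The corrected interactions over all genes were 56 for BaP and 14 for NNK. DESeq2 called 2 genes in FGFR1, 1 in NRG1 and 5 for GFP against HCRED with DMSO, and 2, 0 and 0 interactions for CSC, BaP and NNK. Over all genes DESeq2 called 83, 72 and 989 in those comparisons with DMSO, where limma-voom called 265, 285 and 2519. Its interactions over all genes were 60, 26 and 16, against 202, 53 and 28. The edgeR test and the fit of all 95 samples each called 2 genes in NRG1 with DMSO (295 and 183 over all genes). The NNK interaction count was 0 with edgeR and with no filter (38 and 5 over all genes). Without the DMSO samples NRG1 had 3 calls (912 over all genes), and without the FGFR1 line BaP had 2 interactions (55 over all genes). Without the PIK3CA line, chosen after seeing the data, CSC had 3 interactions, or 1 with the correction (177 and 90 over all genes).

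Leaving out 1 replicate gave 3 to 5 calls in FGFR1 with DMSO, 2 to 4 in NRG1 and 5 to 7 for GFP against HCRED, and 3 to 6 in NRG1 over 4 treatments, the 3 being without replicate 1 or 2. It gave 1 to 2 interactions for BaP, the 2 being without replicate 1 or 3, and 1 to 2 for NNK, the 2 being without replicate 1. Over all genes those 2 BaP fits called 33 and 46 and that NNK fit 48. With DMSO, 229 of all genes were called in FGFR1 without its replicate 3, and 166 in NRG1 without its replicate 2. For GFP against HCRED, 1913 were called without GFP replicate 1. Over 4 treatments NRG1 had 721 and 827 calls without replicate 1 and 2. Same-numbered samples had deviations with correlations of -0.27 to 0.19 over all comparisons. For treatment comparisons within a line, the mean ran from -0.02 (BaP in HCRED cells) to 0.12 (BaP in NRG1 cells). Such weak correlations cannot show whether same-numbered samples of a line share a culture or batch. With the replicate as a block, BaP had 2 interactions (60 over all genes), and no other count of calls moved by over 1.5 times. CD151, with as few as 25 reads in a library, was the gene most limited by depth.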
